A study of Rattus norvegicus with 10 samples.

Results

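The Wnt pathway genes described here are 42 of the 10411 genes that the platform annotation names on the array. They were chosen by symbol: the Wnt, Fzd, Sfrp, Dkk, Dvl, Dact, Axin and Tcf7 families, the Lrp5/Lrp6 co-receptors, and a fixed set of relay, destruction complex and nuclear genes with the CCN genes Ccn4 and Ccn5. The rule itself uses symbols and no measured value, though it was set with earlier results of these data known, and each gene was read by its brightest probe set over all arrays. The tissue was the #4 mammary gland, taken at postnatal day 50 from female Sprague-Dawley rats that had eaten a CAS, an SPI or a GEN diet, all purified. GEN is genistein, a soy isoflavone known as a ligand of estrogen receptors. CAS and SPI are not spelled out in the labels, and are casein and soy protein isolate from knowledge of the study. CAS had 3 arrays (replicates 1, 2 and 3), SPI had 4 (replicates 2, 3, 4 and 5) and GEN had 3 (replicates 1, 3 and 5). Each array carried RNA pooled from 2 animals, and 3 labelled targets were made per pool. The labels do not tie arrays to pools, so the p-values measure the spread between these arrays, which may be technical in part. No genotype, dose or feeding time is stated in the labels.

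Wnt ligands are secreted lipid-modified proteins that bind Frizzled receptors and Lrp co-receptors at the cell surface. Without a ligand, a complex of Axin, Apc, Gsk3b and casein kinase marks beta-catenin for degradation. With a ligand, Dishevelled proteins disable that complex, and beta-catenin enters the nucleus and works with Tcf and Lef factors at target genes. In the mammary gland the pathway is known for its part in forming the placode, in side branching downstream of progesterone and in maintaining basal stem cells.

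The labels name epithelial cells as the source, the labelling protocol names the gland, and colon appears in the design text. Luminal keratins and Epcam (1266 to 4197 over the 10 arrays) were measured together with fibroblast, adipocyte and endothelial genes, as in whole gland. Of the 6 adipocyte genes on the array, 4 were bright enough to test, such as Fabp4 (10206 to 16003). Plin1 (24.7 to 110) and Lep (6.6 to 18.8) were not. Of 8 colon epithelial markers on the array, 6 had a mean signal below the filter on dim probe sets. These ran from Slc26a3 at 3.7 to 45.1, the dimmest, to Cdh17 at 127 to 184, with Muc2 at 83.9 to 207. Cdx2 (315 to 476) and Lgals4 (111 to 319) lay above the filter. In such mixed tissue, fewer cells of a type and less RNA per cell cannot be told apart. Array medians ran from 222.8 to 256.7. One library of CAS (CAS 1) had the highest summed signal of skeletal muscle markers. One of SPI (SPI 4) had the highest beta-actin 3'/5' ratio, a measure of transcript shortening, at 7.77 against 2.83 to 5.22 on the others.

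Of the 42 genes, 31 were bright enough to be tested, and 11 fell in the lowest 40% of probe sets by mean signal, below a geometric mean of about 162. No member passed the test between diets: 0 of 31 reached a Benjamini-Hochberg adjusted p of 0.05 in limma in any of the 3 comparisons, and of all 9520 probe sets tested 0 did (0% called). At an unadjusted p under 0.05, SPI against CAS had 3 members (9.68% of 31), 1 higher and 2 lower, where 4.82% of all probe sets lay below that p (1.53% higher, 3.29% lower). GEN against CAS also had 3 members, 2 higher and 1 lower, beside 5.89% of all probe sets (2.70% higher, 3.19% lower). SPI against GEN had 5 members (16.1%), 4 higher and 1 lower, beside 7.95% of all probe sets (3.70% higher, 4.25% lower). The median log2 difference of the tested members was 0.03 in the first of these comparisons, -0.11 in the second and 0.05 in the last, beside -0.01, -0.01 and 0.00 over all probe sets. For SPI against CAS 18 members were above 0 and 13 below, and 23 and 8 when arrays were scaled to a common median. For GEN against CAS the split was 13 and 18 under either scaling, and for SPI against GEN it was 16 and 15, and 20 and 11 with median scaling. Median scaling also moved the median of all probe sets, to 0.06 for SPI against CAS and for SPI against GEN. Values are MAS5 signals on a linear scale, and differences are on the log2 scale with standard errors from the fit. Each pair of comparisons shares the arrays of 1 diet, so their results are not independent.

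**Figure D1:**
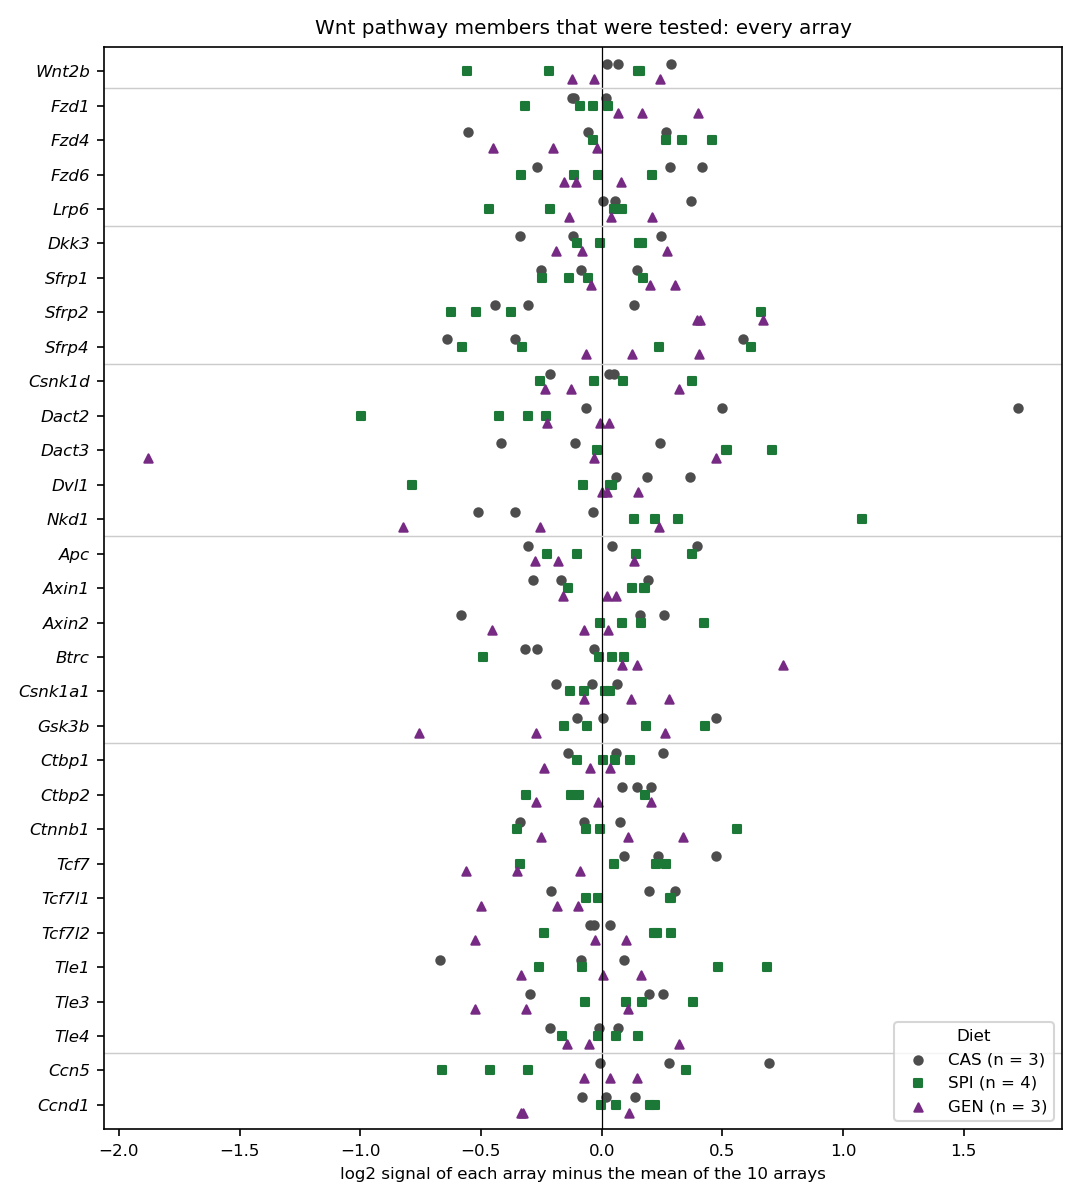
Log2 signal of the 31 tested members on each of the 10 arrays, relative to the mean of the 10 arrays for that gene (x axis), with genes ordered by role (grey lines separate roles) and diets by colour and marker (CAS n = 3, SPI n = 4, GEN n = 3). Most genes lie within 1 log2 unit, and the points farthest out are Dact2 on CAS 1, Nkd1 on SPI 4 and Dact3 on GEN 3.

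The plot of every array shows the spread of each member, which for most was near that of other probe sets. The median standard deviation within a diet was 0.26 log2 units over the tested members (0.13 to 0.71), against 0.25 over all tested probe sets. Csnk1a1, a casein kinase that primes beta-catenin for degradation, varied least, with its highest signal 1.38 times its lowest. Dact2 and Dact3, which bind Dishevelled, varied most: the highest Dact2 signal was 6.61 times the lowest, and Dact3 ranged, from 48.4 to 291.

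Ligands were mostly at the lower end of detection. Of the 6 ligand genes, counting Porcn, the enzyme that lipidates Wnt proteins, only Wnt2b was tested. Wnt4, which acts downstream of progesterone in side branching, had signals of 118, 83.4 and 212 on CAS 1, 2 and 3. On SPI 2, 3, 4 and 5 Wnt4 measured 180, 155, 104 and 110, and on GEN 1, 3 and 5 it measured 138, 131 and 180. These ranges overlap in all 3 diets. Wnt5a lay at 35.6 to 92.3, Wnt5b at 12.9 to 126, Wnt6 at 52.9 to 192 and Porcn at 85.5 to 203. These genes lay below the filter, so no difference is given. Wnt2b measured 415, 345 and 357 on CAS, 231, 292, 380 and 377 on SPI, and 312, 402 and 332 on GEN. Its diets overlapped, and its log2 difference was -0.24 ± 0.19 (SE) for SPI against CAS, and -0.10 without SPI 2.

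Receptors had 4 tested genes of 5, Fzd2 being dim (67.5 to 159). Fzd4, a Frizzled that also serves as the receptor for norrin in endothelial cells, measured 2559, 2243, 2346 and 1819 on SPI 2, 3, 4 and 5. On GEN 1, 3 and 5 it measured 1842, 1364 and 1620, and on CAS 1, 2 and 3 it measured 1269, 2241 and 1794. SPI 2, 3 and 4 stood above every GEN array, but SPI 5 lay just below GEN 1, so the groups overlapped. The difference of SPI against GEN was 0.48 ± 0.19 (SE) with an unadjusted p of 0.0274, and the Benjamini-Hochberg adjusted p in limma was 0.582. The second, dimmer tested probe set of Fzd4 gave -0.16 for the same comparison, so its probe sets disagree in direction, and their mean gave 0.16.

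For SPI against CAS, Fzd4 differed by 0.37 ± 0.19, and by 0.15 without CAS 1. Endothelial markers are set beside it. All 6 endothelial genes on the array of 8 listed were tested, none was near 0, and their signals summed to 10653 to 15369 on CAS, 13081 to 17729 on SPI and 10241 to 13624 on GEN. The 3 arrays with the lowest Fzd4 signal (CAS 1, GEN 3 and GEN 5) also had the 3 lowest endothelial means, while SPI 2, with the highest Fzd4 signal, ranked 5 of 10 from the lowest in the endothelial mean. All 6 endothelial genes were higher on SPI than on GEN, with a median log2 difference of 0.41. Their part in the Fzd4 values was not tested.

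Fzd1, a Frizzled receptor, was the other receptor near the threshold. It measured 391, 393 and 432 on CAS, 434, 416, 342 and 401 on SPI, and 563, 479 and 447 on GEN. All GEN arrays lay above all arrays of the other diets. GEN and CAS did not overlap in 4 of 31 members (12.9%), 3 higher and 1 lower on GEN, beside 11.1% of all probe sets (5.70% higher, 5.41% lower). SPI and GEN did not overlap in 3 members, 1 higher and 2 lower on SPI, beside 8.50% of all probe sets (4.13% higher, 4.37% lower). Fzd1 differed by 0.29 ± 0.16 (SE) for GEN against CAS and by -0.32 ± 0.15 for SPI against GEN, with unadjusted p of 0.0922 and 0.0514 in limma. Lrp6, a co-receptor, had the lowest value among receptors for SPI against CAS, at -0.28 ± 0.17, and -0.17 without CAS 2 or without SPI 5. Fzd6, the remaining receptor, had signals of 354 to 593.

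Many secreted inhibitors bind Wnt proteins or their co-receptors outside the cell. Genes were put in this role by symbol, Dkk3 included, and not by a shown action of each. All 4 tested members (Dkk3, Sfrp1, Sfrp2 and Sfrp4) had positive differences for GEN against CAS, with a median of 0.26, beside 47.9% of all probe sets. They did so under quantile and median scaling too. For SPI against CAS 2 of the 4 had positive differences, and 4 of 4 did under quantile or median scaling. Wif1 was dim at 34.4 to 96.6. Sfrp2, a secreted decoy of Wnt proteins made by stroma, measured 280, 278 and 336 on GEN against 232, 155 and 171 on CAS. Every GEN array of Sfrp2 lay above every CAS array. On SPI 2, 3, 4 and 5 Sfrp2 measured 163, 147, 137 and 334, so SPI 5 stood apart from the other SPI arrays and within the GEN range. Sfrp2 differed by 0.69 ± 0.31 (SE, 95% interval 0.03 to 1.36) for GEN against CAS, with a Benjamini-Hochberg adjusted p of 0.825 in limma. For SPI against GEN it differed by -0.71 ± 0.29, with a Benjamini-Hochberg adjusted p of 0.583 in limma, and by -0.997 without SPI 5.

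Sfrp4, which is found in stroma and adipose tissue, had values that overlapped in all diets. It measured 815, 424 and 349 on CAS, 433, 365, 641 and 835 on SPI, and 594, 720 and 521 on GEN. CAS 1 and SPI 5 held the highest Sfrp2 and Sfrp4 signals of their diets. The same 2 arrays held the highest fibroblast marker means of their diets, 12.21 against 11.37 and 11.66 on the other CAS arrays, and 11.64 against 10.62 to 11.27 on the other SPI arrays. All 12 fibroblast genes were tested, none near 0, and their summed signal ran from 62450 to 120609 on CAS, 43961 to 87744 on SPI and 59918 to 78198 on GEN. For GEN against CAS all 12 had negative differences, with a median of -0.34, the opposite sign to Sfrp2. Their part in the Sfrp values was not tested.

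**Figure D2:**
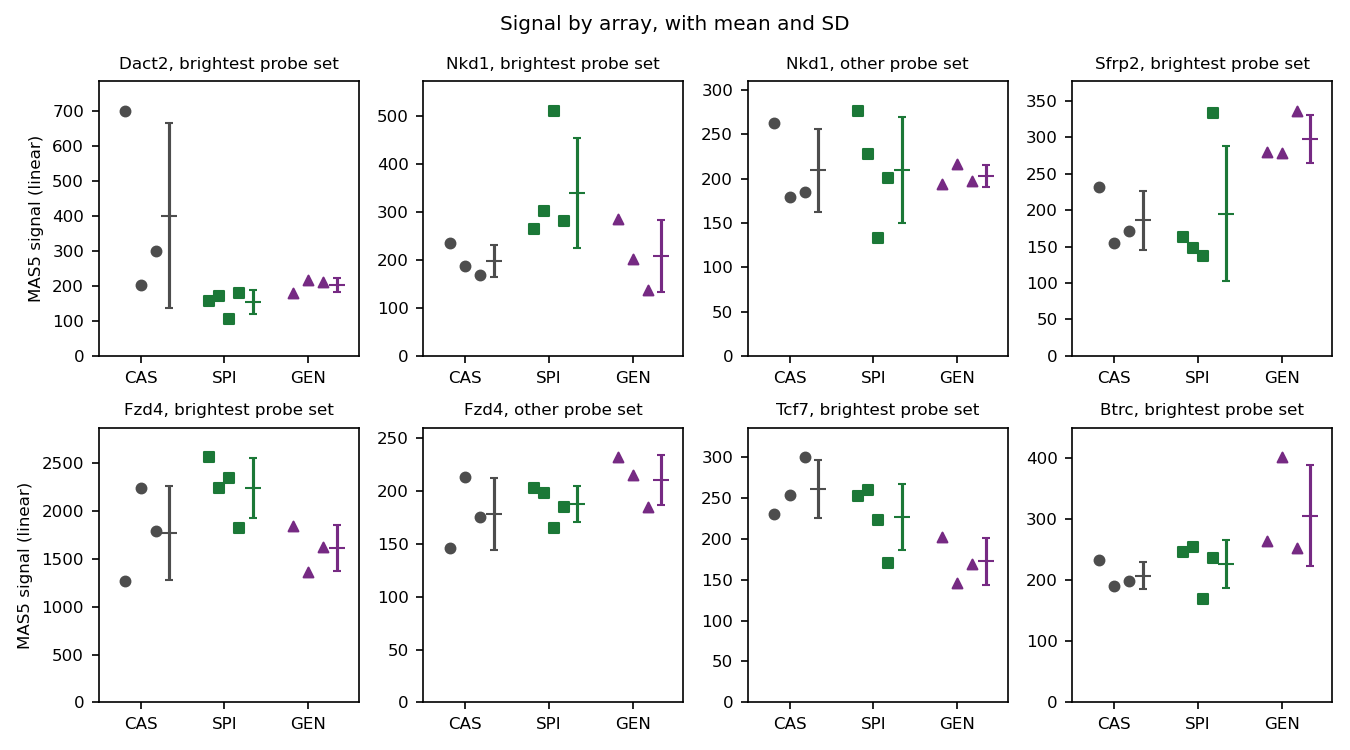
MAS5 signal (linear y axis, starting at 0) of Dact2, Nkd1, Sfrp2, Fzd4, Tcf7 and Btrc on each array by diet, with the diet mean and SD beside the points (CAS n = 3, SPI n = 4, GEN n = 3). Nkd1 and Fzd4 appear with their second tested probe set, which does not repeat the ordering of the brightest one.

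The plot of signals by array sets the second probe sets of Nkd1 and Fzd4 beside the first, and shows CAS 1 far above all other points for Dact2. Among the cytoplasmic relay genes, 5 of 7 were tested, Dvl2 (2.0 to 44.1) and Csnk1e (84.3 to 158) being dim. Dact2, an inhibitor that binds Dishevelled, had the lowest difference of the 31 tested members for SPI against CAS. It measured 701, 203 and 300 on CAS 1, 2 and 3 and 158, 171, 106 and 181 on SPI 2, 3, 4 and 5. On GEN 1, 3 and 5 it measured 181, 216 and 211. All SPI arrays lay below all CAS arrays. SPI and CAS did not overlap in 3 of 31 members, 1 higher (Nkd1) and 2 lower (Dact2 and Dvl1), beside 4.60% of all probe sets (1.78% higher, 2.83% lower). The means were 401 ± 264 (SD, n = 3) on CAS and 154 ± 33.3 (SD, n = 4) on SPI. The log2 difference was -1.21 ± 0.35 (SE, 95% interval -1.96 to -0.46), with a Benjamini-Hochberg adjusted p of 0.750 in limma. Without CAS 1 it was -0.71, and without CAS 1 and SPI 4 it was -0.54. For GEN against CAS it was -0.79 ± 0.37, and -0.28 without CAS 1.

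CAS 1 was also the array with the highest skeletal muscle marker signal, summed or as a mean. Of 10 muscle genes listed, 9 were on the array and 4 were tested, and their summed signal was 1855 to 6700 on CAS, 1577 to 2154 on SPI and 2117 to 2522 on GEN. Acta1, the skeletal actin, measured 1731 on CAS 1 and 32.3 to 308 on the others, and no muscle gene was at 0 (the lowest, Myh4, reached 4.5). Myh1, a tested one, was alone of the 9 in not being highest on CAS 1, with 1371 there and 1481 on GEN 3. CAS 1 and CAS 3 held the highest and next highest Dact2 signals and muscle means. CAS 2 ranked 2 of 10 from the lowest in the muscle mean but 6 in Dact2. SPI 4, with the lowest Dact2 signal, ranked 4 in the muscle mean. That mean is of log2 signals, in which dim genes count as much as bright ones. In summed signal the order changed: SPI 4 was the lowest array (1577), and CAS 3 (2290) lay below GEN 3 (2522). The part of muscle RNA in the Dact2 values was not tested, and the difference without CAS 1 is given above.

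**Figure D3:**
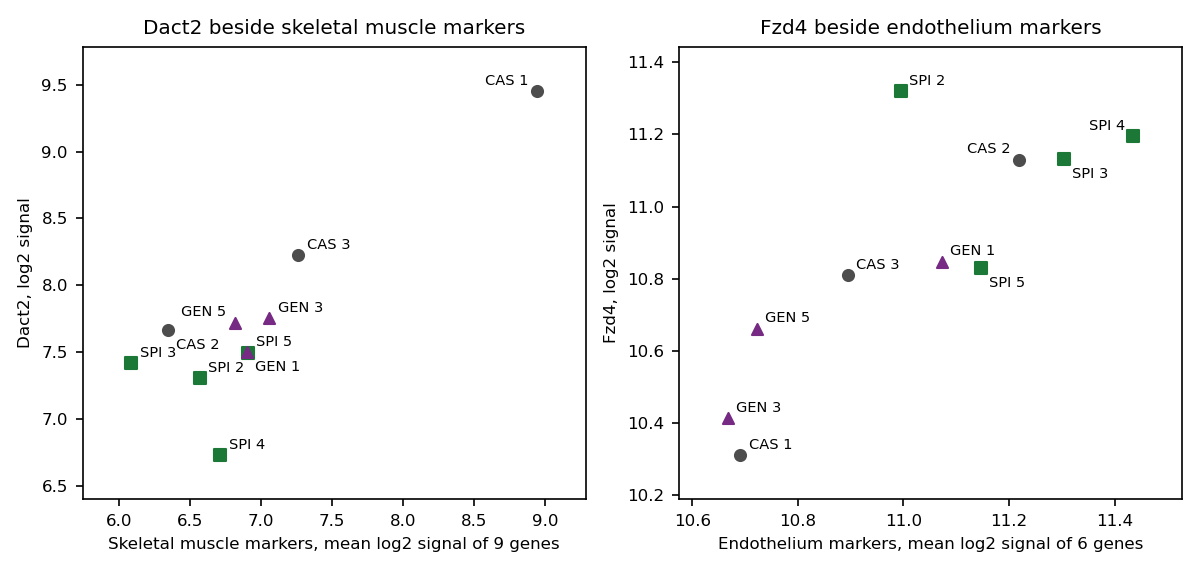
Log2 signal of Dact2 against the mean log2 signal of 9 skeletal muscle genes (left) and of Fzd4 against the mean of 6 endothelial genes (right), with 1 labelled point per array. CAS 1 is farthest right and highest on the left, and CAS 1, GEN 3 and GEN 5 lie lowest on both axes on the right.

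The plot of Dact2 and Fzd4 beside marker genes gives these values array by array. Without CAS 1, the muscle means of the remaining arrays run from 6.09 to 7.26. Dact3, another Dact family gene, measured 165, 211 and 134 on CAS, 255, 255, 291 and 176 on SPI and 247, 48.4 and 174 on GEN. GEN 3 alone was far below the other arrays. The difference was 0.91 ± 0.44 for SPI against GEN, and 0.21 without GEN 3. For GEN against CAS it was -0.39 ± 0.47, and 0.31 without GEN 3. Dvl1, a Dishevelled protein, measured 377, 304 and 333 on CAS and 170, 301, 278 and 300 on SPI. All SPI arrays lay below all CAS arrays, with SPI 2 the lowest by far, and the difference was -0.40 ± 0.21, and -0.20 without SPI 2. Csnk1d, a casein kinase of the relay, had signals of 1269 to 1963 on its brightest probe set. That probe set gave 0.03 for GEN against CAS, and its other tested probe sets gave 0.44, 0.17 and 0.23. For SPI against CAS these gave 0.09, and 0.34, -0.19 and 0.21.

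Nkd1, a Dishevelled-binding inhibitor that is itself a target of the pathway, measured 235, 188 and 169 on CAS and 265, 301, 510 and 282 on SPI. On GEN 1, 3 and 5 it measured 285, 203 and 137. All SPI arrays lay above all CAS arrays, and SPI 4 stood highest. SPI 4 also had the highest beta-actin 3'/5' ratio, and GEN 5, the lowest array for Nkd1, had the lowest ratio (2.83). SPI 5, with a ratio nearly as low (2.94), had Nkd1 above every CAS array, where the ratios were 4.06 to 5.04. The part of transcript shortening in the Nkd1 values was not tested. The difference for SPI against CAS was 0.74 ± 0.28 (SE, 95% interval 0.13 to 1.35), with a Benjamini-Hochberg adjusted p of 0.987 in limma, and it was 0.53 without SPI 4. For SPI against GEN it was 0.72 ± 0.28, with a Benjamini-Hochberg adjusted p of 0.582 in limma, 0.50 without SPI 4 and 0.44 without GEN 5. The second tested probe set of Nkd1 gave -0.02 and -0.00, and SPI 4 was its lowest array at 133. The mean of both probe sets gave 0.36 for each of these comparisons.

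Axin2, a scaffold of the destruction complex and the most widely used target gene of the pathway, is set beside Nkd1. The 250 bases before the start of each gene are shown from RefSeq on GRCr8 because both are known targets, with the core Tcf/Lef letters in capitals. Axin2 lies at chr10:94398535-94398784 on the plus strand and Nkd1 at chr19:34722847-34723096 on the minus strand.
Axin2: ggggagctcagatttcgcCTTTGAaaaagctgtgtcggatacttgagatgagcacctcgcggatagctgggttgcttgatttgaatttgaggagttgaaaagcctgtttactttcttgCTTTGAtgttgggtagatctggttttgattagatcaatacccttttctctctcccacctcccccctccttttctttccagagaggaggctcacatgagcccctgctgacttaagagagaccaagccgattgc
Nkd1: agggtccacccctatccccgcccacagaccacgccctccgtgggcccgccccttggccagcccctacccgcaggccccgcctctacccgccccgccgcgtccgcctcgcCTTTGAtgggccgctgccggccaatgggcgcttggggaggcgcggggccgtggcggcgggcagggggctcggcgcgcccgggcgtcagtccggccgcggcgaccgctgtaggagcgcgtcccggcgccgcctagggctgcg
Axin2 holds CTTTGA 232 and 132 bases before its start and Nkd1 holds it 141 bases before. The letters CTTTGA or the reverse complement TCAAAG occur in 3 of the 30 members with a promoter entry (10%, Tle4 being the other), and in 13.8% of 27457 promoters of that length. A match is a description of these letters only.

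Axin2 measured 126, 210 and 226 on CAS, 200, 211, 253 and 188 on SPI and 192, 138 and 179 on GEN. The diets overlapped. The difference was 0.22 ± 0.24 for SPI against CAS, and -0.04 without CAS 1, its lowest array. For GEN against CAS it was -0.11 ± 0.26, 0.05 without CAS 3 and 0.03 without GEN 3. Nkd1 for GEN against CAS was 0.02 ± 0.30. Between GEN and CAS the intervals of both target genes held differences of either direction. All 6 destruction complex genes were tested, and 5 of 6 had positive differences for SPI against CAS, with a median of 0.06. Quantile scaling gave 5 of 6. Median scaling gave 6 of 6, but it moved the median of all probe sets from -0.01 to 0.06. Apc, the large scaffold that regulates the complex, had signals of 563 to 915, and Csnk1a1 of 3138 to 4343. Axin1, the other scaffold, was at 0.17 there, 0.07 without CAS 3 and 0.31 without CAS 1. Gsk3b, the kinase of the complex, measured 317, 157 and 219 on GEN against 266, 367 and 247 on CAS, a difference of -0.38 ± 0.27, with overlapping diets. Without GEN 3 it was -0.13, without CAS 2 -0.21 and without GEN 1 -0.64.

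Btrc, the ubiquitin ligase subunit that recognises marked beta-catenin, measured 264, 402 and 253 on GEN and 234, 192 and 199 on CAS. All GEN arrays lay above all CAS arrays, with GEN 3 well above the rest. On SPI it measured 246, 255, 170 and 237, which overlapped both. The difference for GEN against CAS was 0.53 ± 0.23 (SE), with a Benjamini-Hochberg adjusted p of 0.825 in limma, and 0.32 without GEN 3. The second tested probe set of Btrc gave 0.33 ± 0.30, with 104.4, 204.3 and 222.5 on CAS and 206.5, 216.6 and 209.9 on GEN, so these overlapped. It gave 0.37 for SPI against CAS and 0.04 for SPI against GEN. The mean of both probe sets gave 0.43 for GEN against CAS.

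Nuclear genes had 9 tested members of 10, Lef1 being dim at 9.1 to 27.9. For SPI against GEN 6 of the 9 had positive differences, with a median of 0.26, and 6 did with quantile scaling. With median scaling 9 of 9 did, but that scaling moved the median of all probe sets from -0.004 to 0.06. Tcf7, a DNA-binding factor that beta-catenin works with, measured 203, 146 and 169 on GEN against 230, 254 and 299 on CAS. All GEN arrays lay below all CAS arrays. On SPI it measured 252, 259, 223 and 170, and only SPI 5 fell within the GEN range. The difference for GEN against CAS was -0.60 ± 0.22 (SE, 95% interval -1.08 to -0.12), with a Benjamini-Hochberg adjusted p of 0.825 in limma, and between -0.72 and -0.49 when 1 array was left out at a time.

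Tcf7l1, a Tcf factor that mostly acts as a repressor, measured 602, 472, 603 and 490 on SPI and 435, 462 and 349 on GEN. All SPI arrays lay above all GEN arrays. On CAS it measured 567, 610 and 427. The difference for SPI against GEN was 0.38 ± 0.17 (SE), with a Benjamini-Hochberg adjusted p of 0.617 in limma. Ctnnb1, beta-catenin, measured 6865, 8261 and 9148 on CAS, 8296, 12798, 6811 and 8637 on SPI and 9351, 10970 and 7299 on GEN. Its diets overlapped, and the difference for GEN against CAS was 0.18 ± 0.21, and 0.04 to 0.33 when 1 array was left out. Its other tested probe sets gave -0.02 and 0.40. The dimmest of these was lowest on SPI 4 (196), which had the highest actin ratio, and highest on SPI 5 (933), whose ratio was 2.94. Whether transcript shortening had a part in these values was not tested. Tle1 and Tle3, co-repressors that occupy Tcf factors, gave 0.43 ± 0.28 for SPI against CAS (0.20 without CAS 3, 0.27 without SPI 4) and 0.39 ± 0.19 for SPI against GEN (0.25 without GEN 3), and Ctbp2, another co-repressor, gave -0.23 for SPI against CAS. Tcf7l2 (782 to 1374), Tle4 (574 to 830) and Ctbp1 (1416 to 1995) complete the nuclear genes.

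**Figure D4:**
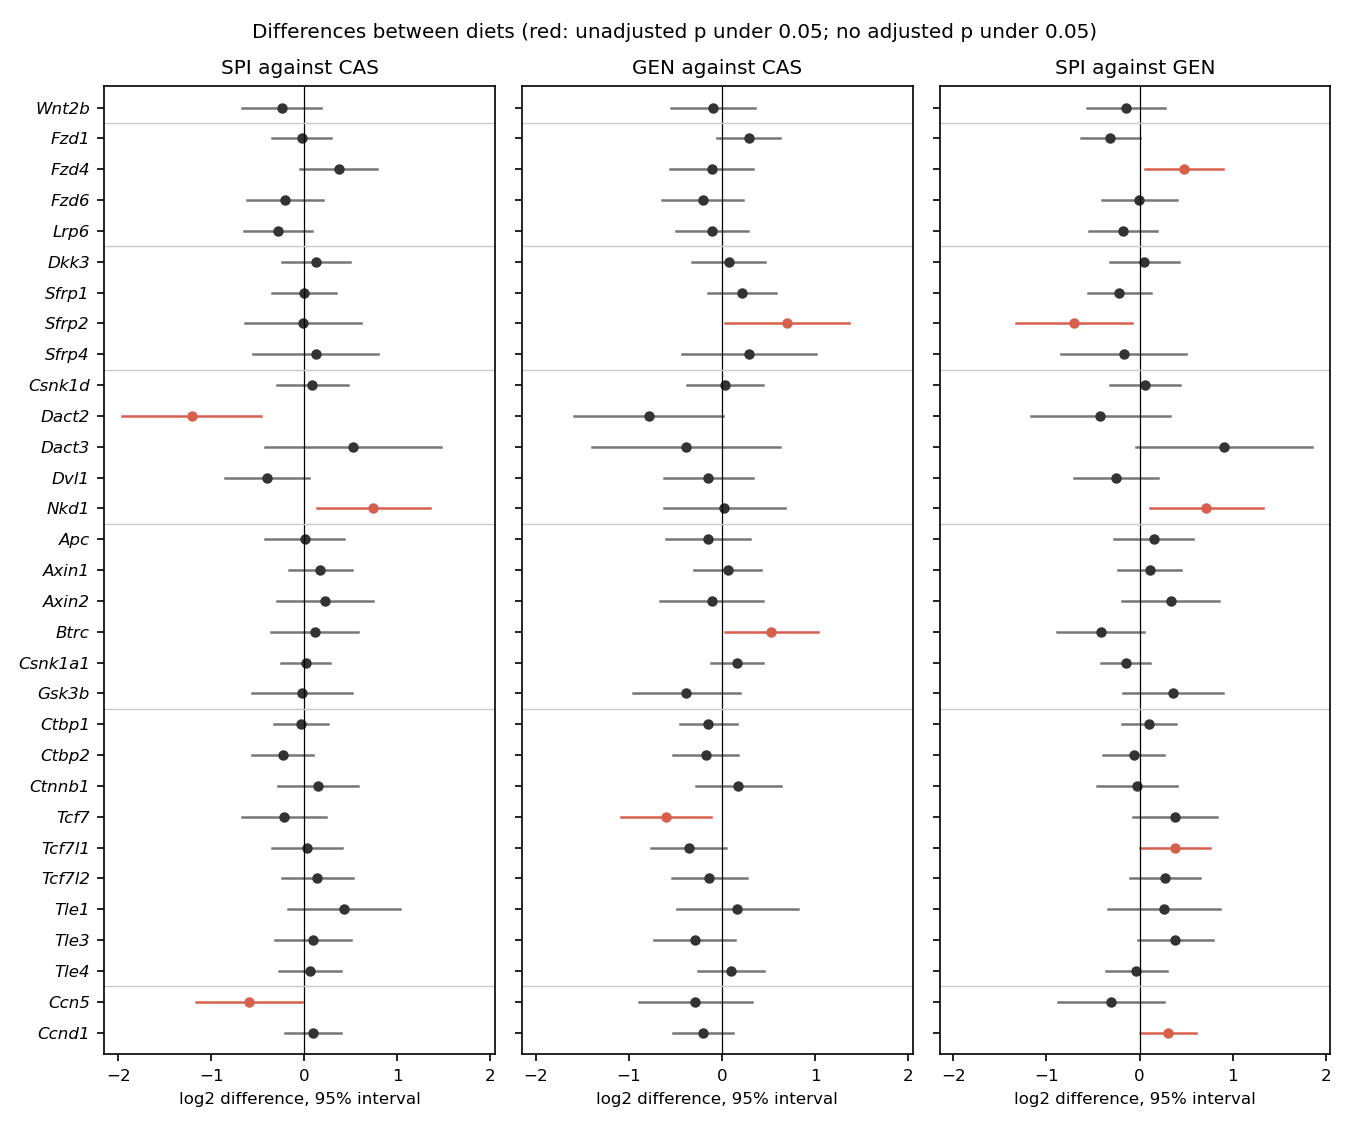
Log2 difference between diets (x axis) with its 95% interval from limma for the 31 tested members, in 1 panel per comparison, ordered by role. Red marks an unadjusted p under 0.05 (3, 3 and 5 members), and no member passed the adjusted threshold.

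The plot of differences with their intervals shows that most intervals cover 0 in each panel. Of the targets and CCN genes, Ccn4 was dim (42.0 to 97.9). Ccn5, a secreted matricellular protein, measured 274, 206 and 169 on CAS and 123, 107, 216 and 137 on SPI. SPI 4 overlapped the CAS range and the other 3 SPI arrays lay below it. The difference was -0.59 ± 0.26 (SE), with a Benjamini-Hochberg adjusted p of 0.987 in limma, and -0.41 without CAS 1, the array with the highest fibroblast markers. On SPI, the highest fibroblast mean was that of SPI 5 (11.64), where Ccn5 was 137. SPI 4, with a fibroblast mean of 11.27, had the highest Ccn5 of the SPI arrays. Whether fibroblast RNA had a part in the Ccn5 values was not tested. Ccnd1, the G1 cyclin often named as a target, measured 2275, 2472 and 2126 on CAS, 2618, 2242, 2345 and 2585 on SPI and 2432, 1793 and 1782 on GEN. GEN 3 and GEN 5 lay below all other arrays, but GEN 1 did not. The difference for SPI against GEN was 0.30 ± 0.14 (SE), with a Benjamini-Hochberg adjusted p of 0.625 in limma, while its other tested probe sets gave 0.38 and -0.26.

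Genes of the pathway outside these families were read from a list of 84, of which 53 were on the array and 41 were tested. At the adjusted threshold 0 of 41 passed in limma in any comparison. For SPI against GEN, 0 were higher and 5 were lower at an unadjusted p under 0.05, beside 3.70% higher and 4.25% lower of all probe sets, with a median over the list of 0.01. Cdh1, E-cadherin, which holds beta-catenin at cell junctions, measured 545, 395, 229 and 659 on SPI and 798, 761 and 1314 on GEN. All SPI arrays lay below all GEN arrays, and SPI 4 was lowest. The difference was -1.13 ± 0.31 (SE), with a Benjamini-Hochberg adjusted p of 0.461 in limma.

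Cdh1 is also one of the luminal markers. Of the 11 luminal genes tested (12 of 14 on the array), 10 were lower on SPI than on GEN, with a median log2 difference of -0.64, and the signals of the 12 summed to 9171 to 18523 on SPI, 19463 to 25579 on GEN and 14215 to 23768 on CAS. None of the 12 was at 0, the dimmest being Krt7 at 57.5 to 260. The part of luminal RNA in the Cdh1 values was not tested. The other 4 lower genes were Prickle2 of the planar polarity branch (-0.66), Lgr4, a receptor for R-spondins (-0.55), the Wnt receptor Ryk (-0.47) and the co-repressor Tle2 (-0.37).

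For SPI against CAS, 1 gene of this list was higher and 2 were lower at an unadjusted p under 0.05, beside 1.53% higher and 3.29% lower of all probe sets. Igfbp4, a secreted inhibitor of insulin-like growth factors, had 0.47 ± 0.21 (SE), Tle2 had -0.47 ± 0.16 and Cdh1 had -0.74 ± 0.31. In GEN against CAS 1 of the 41, Ryk, stood below that p, at 0.39 ± 0.17, beside 5.89% of all probe sets. Myc, a target in other epithelia, measured 1944 to 3263 over the arrays and had 0.17 for both diets against CAS. Tnfsf11, the RANK ligand of the progesterone response, was dim at 20.9 to 71.7.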

How the data were processed

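RNA was measured on 10 Affymetrix RAE230 arrays. The authors deposited linear MAS5 intensity for each probe set, per the submitters' processing notes, with the software version not given in the sources used here. After leaving out 2% at each end, array means were 500.12 to 500.14, so each array had been scaled as a whole. Of 15923 probe sets, 57 controls were left out. Values under 1 (0.0634%) were set to 1, log2 of the deposited intensity was taken, and the lowest 40% by mean log2 were left out, which left 9520. Diets were compared with limma 3.58.1 in R 4.3.3 (eBayes with trend) in 1 fit of all 10 arrays with 7 residual degrees of freedom, with Benjamini-Hochberg adjustment over 9520 probe sets. With so few arrays, the median 95% interval of a difference reached 0.42 log2 units to either side for SPI against CAS and for SPI against GEN, and 0.44 for GEN against CAS. The fit was tested on simulated data. Promoters were the 250 bases before each start in RefSeq (GRCr8), which held 30 of 42 members.

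The members and lists were chosen with earlier results of these data known. Named members were, per comparison, those at an unadjusted p under 0.05, the 6 highest and 6 lowest differences, and the target genes Axin2, Nkd1 and Ccnd1. Of the other pathway genes, those at an unadjusted p under 0.05, Tnfsf11 and Myc were named. Dim members, Wnt4 among them, are given by signal only. Tried as alternatives were an offset of 50, no filter and a filter of 60%, quantile and median scaling, eBayes without trend and robust, only the groups compared, the mean of probe sets, the replicate number as a block, and leaving out each array.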

Additional observations from a re-analysis of the deposited data

Results flagged for a closer look

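On the SPI diet, the only group of 4 arrays, the lowest or highest array was compared with its neighbour on the log2 scale for each of the 31 tested members, and 2 members had an array far from the others. Dvl1 on SPI 2 had a signal of 169.8, with a gap of 0.857 of the range of the diet in log2 units, above Dixon's 95% critical value for 4 samples, but 0.819 on the linear scale, below it. Tcf7l2, a Tcf factor, had 953.8 on SPI 5, with a gap of 0.866 in log2 units. Chance gives about 1 in 20 groups such a gap, so 2 of 31 is near that rate.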

How the results depend on the processing

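No member passed the adjusted threshold under any of the 21 alternatives, and the lowest adjusted p of a named difference in limma was 0.160. Of 858 values of 42 named differences, 847 kept their direction and 11 reversed. Part of these could not reverse, because the eBayes options, the filter and fitting only the groups compared leave a difference as it was. Leaving out an array of the diet not compared does so too. The direction held throughout for 36 of the 42.

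Counts of members at an unadjusted p under 0.05 moved with the setting. With the lowest 60% left out only 20 members were tested. None of the members below that p against CAS was among them, so the counts of 0 for both diets against CAS follow from the filter, and SPI against GEN had 2. For SPI against GEN (5 in the report) they were 3 with the mean of probe sets, 8 with median centring and 2 without CAS 1 and SPI 4, a setting chosen after seeing the data. Leaving out 1 array gave 2 to 3 for SPI against CAS, 0 to 5 for GEN against CAS (5 without GEN 1, 0 without GEN 3) and, between SPI and GEN, 0 to 8 (3 without CAS 1, GEN 3 or GEN 5, 2 without SPI 2, 0 without SPI 4, 8 without SPI 5). Under the same omissions the median of the members ran from -0.02 to 0.08, from -0.19 to 0.0045 and from -0.042 to 0.12. Median centring gave 23 members higher and 8 lower for SPI against CAS and 20 and 11 for SPI against GEN, against 18 and 13 and 16 and 15. The median of all probe sets moved to 0.06 in these comparisons with it.

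The labels do not say whether replicate numbers pair the arrays. Residuals of the 6 same-numbered pairs correlated from -0.18 to 0.16, with 1 above 0.1. Differently numbered pairs from different diets ran from -0.40 to 0.30, so few arrays cannot settle the question. The replicate block gave 1 member at an unadjusted p under 0.05 for GEN against CAS and 1 between SPI and GEN, a median of -0.011 for GEN against CAS, and 0.095 for Dact2 (SPI against GEN).

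The other reversals were, for GEN against CAS, Axin2 (-0.38 to 0.045 without 1 array, above 0 without CAS 3 or GEN 3), Dact3 (-0.86 to 0.31, above 0 without GEN 3) and Nkd1 (-0.23 to 0.30, below 0 without CAS 2, CAS 3 or GEN 1, and -6.2e-05 with the mean of probe sets). For SPI against CAS they were Axin2 (-0.041 to 0.38, below 0 without CAS 1, and -0.13 without CAS 1 and SPI 4) and Ccnd1 (-0.0792 with the mean of probe sets). Of all 9520 probe sets, 0 passed in the report. For GEN against CAS 2 passed with eBayes robust, with the lowest 60% left out and without CAS 1 and SPI 4, and 0 to 1 without 1 array. For SPI against CAS 1 passed without CAS 1 and SPI 4, and 0 to 2 without 1 array. For SPI against GEN 2 passed with only the groups compared, and 0 to 1 without 1 array. The causes were not tested. Dim signals limit the ligands most.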
